A study of Mus musculus with 3 samples.

Results

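The 9 genes described here are a set of transcription factors that mark classes of spinal neurons, namely Pax2, Lmx1b, Foxp2, Ebf1, Ebf2, Nfia, Nfib, Zfhx3 and Zfhx4. They were matched by gene symbol, and all 9 were found among the 31040 genes of the table of unique molecular identifiers (UMIs, each standing for 1 captured RNA molecule). Spinal neurons are born in stripes along the dorsoventral axis of the neural tube, and each stripe is set up by a combination of homeodomain and other DNA-binding proteins. Several of these proteins remain in the nucleus of the mature neuron and are used as its label. Pax2, a paired-box factor, marks inhibitory neurons of the dorsal horn and of several ventral classes. Lmx1b, a LIM-homeodomain factor, marks excitatory neurons of the dorsal horn, and the forkhead factor Foxp2 marks a subset of ventral inhibitory V1 interneurons. Ebf1 and Ebf2 belong to the helix-loop-helix family of early B cell factors. Nfia and Nfib belong to the nuclear factor I family, which also drives the making of astrocytes, and Zfhx3 and Zfhx4 are very large zinc-finger homeobox proteins. Across many classes, Nfib and its relatives label locally projecting neurons, and Zfhx3 labels long-range projecting ones.

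Nuclei came from the frozen lumbar spinal cord of 12 mice at 90 days of age. The SOD1G93A line models amyotrophic lateral sclerosis (ALS), and the study describes this age as a peri-symptomatic stage. WT mice were C57BL/6J littermates (3 female and 3 male), and SOD1G93A mice were B6.Cg-Tg(SOD1G93A)1Gur/J (3 female and 3 male), which carry many copies of the mutant human SOD1 gene under its own promoter and keep their own Sod1. Each of 3 pools (A, B and C) was a single loading of 4 mice, with both sexes of both genotypes, and each nucleus carries the study's deposited call of its mouse and cell type. Of 8800 neuron nuclei, all but 27 also carry a neuron sub-type. Levels are UMIs of a gene per 1000000 UMIs of the same nuclei (counts scaled to a common total, CPM), summed per mouse, so that the mouse is the replicate.

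The 14662 nuclei held 206486779 UMIs, with 6411715 to 36668441 UMIs in a mouse. The sub-types are named for position and transmitter: dorsal excitatory (DE, 3089 nuclei) and inhibitory (DI, 1589), mid excitatory (ME, 198) and inhibitory (MI, 542), ventral excitatory (VE, 1317), inhibitory (VI, 496), cholinergic other than motor neurons (VC, 350) and mixed (VM, 176), with 1016 nuclei of unclear neurons. Summed excitatory markers (Slc17a6, Slc17a7 and Slc17a8) exceeded inhibitory ones (Slc32a1, Gad1, Gad2 and Slc6a5) in 12 of 12 mice in DE, in 11 in ME and in 10 in VE, and the reverse held in 12 of 12 in DI, MI, VI and VM. The margin was narrow in VE (106.7 ± 11.6 against 83.9 ± 13.7 CPM) beside DE (119.3 ± 9.99 against 41.2 ± 10.2). VC was split, with excitatory markers higher in 8 mice and inhibitory ones in 4. Summed cholinergic markers ranged from 8.44 to 193 CPM in VC and from 2.33 to 11.9 in VE, and the vesicular acetylcholine transporter Slc18a3 was at 0 in both. Sod1 RNA, to which the transgene can contribute, was higher in both SOD1G93A mice than in both WT mice of every pool: in neurons the female and male WT mice had 84.9 and 64.0 against 134 and 230 CPM in pool A, 29.6 and 28.6 against 97.5 and 63.4 in pool B, and 31.3 and 37.2 against 71.0 and 84.0 in pool C. Barcode sequences that occurred in more than 1 pool numbered 15. Nuclei deposited as microglia stood apart, with a median of 46927 UMIs and summed neuron markers (Rbfox3, Snap25, Syt1 and Grin1) of 1819 to 2556 CPM against 3148 to 3479 in neurons, so they are not used as cells that lack a neuronal gene.

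In the mm10 genome the 9 genes lie on 8 chromosomes, only Nfia and Nfib sharing chromosome 4. Pax2 spans chr19:44756045-44837871 on the plus strand and Lmx1b spans chr2:33560965-33640511 on the minus strand. Foxp2 covers chr6:14901349-15441977, Ebf1 covers chr11:44617317-45008091 and Ebf2 covers chr14:67233292-67430918, all on the plus strand. Nfia lies at chr4:97772734-98118874 (plus) and Nfib at chr4:82290173-82705750 (minus). Zfhx3 at chr8:107942644-108961630 and Zfhx4 at chr3:5218526-5415857 are on the plus strand. Every member except Lmx1b and Foxp2 is overlapped by 1 to 3 genes of the table on the other strand, and whether counting used the strand is not given in the sources used here, so reads of such a pair could not be told apart from these values.

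Levels were compared between sub-types as a description, without a test, because the study assigned the sub-types from the same expression profiles. Of the 63 steps between neighbours in the 9 orders of sub-types, 47 were within 1 SD of the per-mouse difference, so most neighbouring ranks did not differ beyond the spread between mice.

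Pax2 was higher in the inhibitory than in the excitatory sub-type at every level of the cord. In DI it ranged from 177 to 274 CPM over the 12 mice, with a median of 206 and a mean of 217 ± 30.1 (SD, n = 12). MI (143 ± 30.1), VI (106 ± 23.1) and VM (94.5 ± 35.7) followed, and VE (34.0 ± 12.4), VC (27.1 ± 11.8), DE (9.19 ± 5.37) and ME (7.94 ± 13.2) were lower. No DE mouse exceeded 22.3, so DE and DI did not overlap, and 6 of 12 mice had no Pax2 UMI in ME. Within a mouse, the log2 level was lower in DE than in DI by 4.58 ± 0.81 (23.9-fold), lower in ME than in MI by 5.38 ± 2.08, and lower in VE than in VI by 1.66 ± 0.61, each in 12 of 12 mice. In the 6 mice with no Pax2 UMI in ME, the size of the ME and MI difference depended on the prior of 1 added before log2. Over all genes with at least 10 UMIs, 3.92% were lower in DE than in DI in all 12 mice, 0.847% lower in ME than in MI, and 0.29% lower in VE than in VI. The same direction in every mouse is a looser criterion than a lack of overlap.

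Lmx1b was the reverse of Pax2 in the dorsal horn. Its level in DE was 93.3 to 144 CPM (median 119; mean 119 ± 14.2), against 4.13 ± 2.23 in DI with a highest mouse of 7.76. VC, a ventral sub-type, came next with 77.7 ± 38.8 (range 40.0 to 155), and ME held 46.5 ± 12.6. The remaining sub-types had means below 10 CPM, with 205 UMIs in VE, 35 in VM, 23 in MI and 21 in VI over all 12 mice. The log2 difference between DE and DI was 4.69 ± 0.66, between ME and MI 3.67 ± 0.95 (both higher in the excitatory sub-type in 12 of 12 mice), and between VE and VI 1.71 ± 1.23 (11 of 12 mice). The corresponding shares of genes higher in the excitatory sub-type in all 12 mice were 4.72%, 0.73% and 0.538%. At 5000 UMIs per nucleus Lmx1b was found in 2.90% of VE nuclei and in 0 of 491 VI nuclei, against 3.33% in oligodendrocytes, which should lack it. Within VE it was found in 7.47% of the reference type VE_1 and 1.959% of VE_4. The VE and VI difference thus rested on a low level, and it became 3.14 with a prior of 0.1 in place of 1.

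Foxp2 was highest in VI, the sub-type to which V1 interneurons would belong. The VI level was 74.0 to 336 CPM, with a median of 175 and a mean of 188 ± 81.9. VE followed with 56.2 ± 24.2 and MI with 44.4 ± 22.9, and DE had 10.3 ± 6.48. Only the step from VI to VE exceeded its SD, with VI higher in 12 of 12 mice by 1.75 ± 1.19 on the log2 scale.

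Ebf1 and Ebf2, the pair of early B cell factors, were both highest in DE but differed in DI. Ebf1 was 3621 ± 392 CPM in DE (3008 to 4440), 1922 ± 365 in DI (1401 to 2860) and 906 ± 287 in VC, and lowest in VI at 206 ± 64.9. Ebf2 was 1017 ± 137 in DE (799 to 1236), 124 ± 32.2 in DI and 28.1 to 122 in the means of the other sub-types. DE and DI therefore overlapped for neither gene. The DE to DI difference was 0.93 ± 0.23 on the log2 scale for Ebf1 (1.90-fold) and 3.05 ± 0.25 for Ebf2 (8.31-fold), each in 12 of 12 mice. Of 19291 genes, 4.72% were higher in DE than in DI within every mouse, which is a looser criterion than a lack of overlap.

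Nfia and Nfib, the nuclear factor I pair, were arranged differently along the axis. Nfib peaked in the mid sub-types, with 541 ± 102 CPM in ME (316 to 707) and 457 ± 75.8 in MI (344 to 628). It was 251 ± 30.0 in DI and 129 ± 16.5 in DE, and all 4 ventral means were between 52.4 and 100.4. Nfia was instead highest in VI (419 ± 59.2; 359 to 568) and VE (373 ± 44.1; 319 to 482) and lowest in DE (155 ± 26.8; 117 to 205). Every VE and VI value of Nfia exceeded every DE value. Of 19762 genes, 10.3% were lower in DE than in VE within every mouse, which is a looser criterion than a lack of overlap. The share for DE against VI is not given.

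Zfhx3 and Zfhx4, the zinc-finger homeobox pair, were highest in the ventral sub-type VC. Zfhx3 was 1633 ± 312 CPM in VC (1240 to 2186), 850 ± 402 in VM, 767 ± 160 in VE and 522 ± 181 in VI. Its dorsal and mid means were 141 ± 45.0 in DI, 113 ± 20.6 in DE, 81.4 ± 52.9 in MI and 72.1 ± 32.4 in ME, and the lowest VI mouse (259) lay above the highest DI mouse (224). Of 18130 genes, 5.72% were lower in DI than in VI within every mouse, which is a looser criterion than a lack of overlap. Zfhx4 spanned a narrower range, from 272 ± 66.2 in VC and 223 ± 16.2 in VE to 124 ± 14.4 in DE. Only its last step, from DI to DE, exceeded the SD of the difference between mice.

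**Figure D1:**
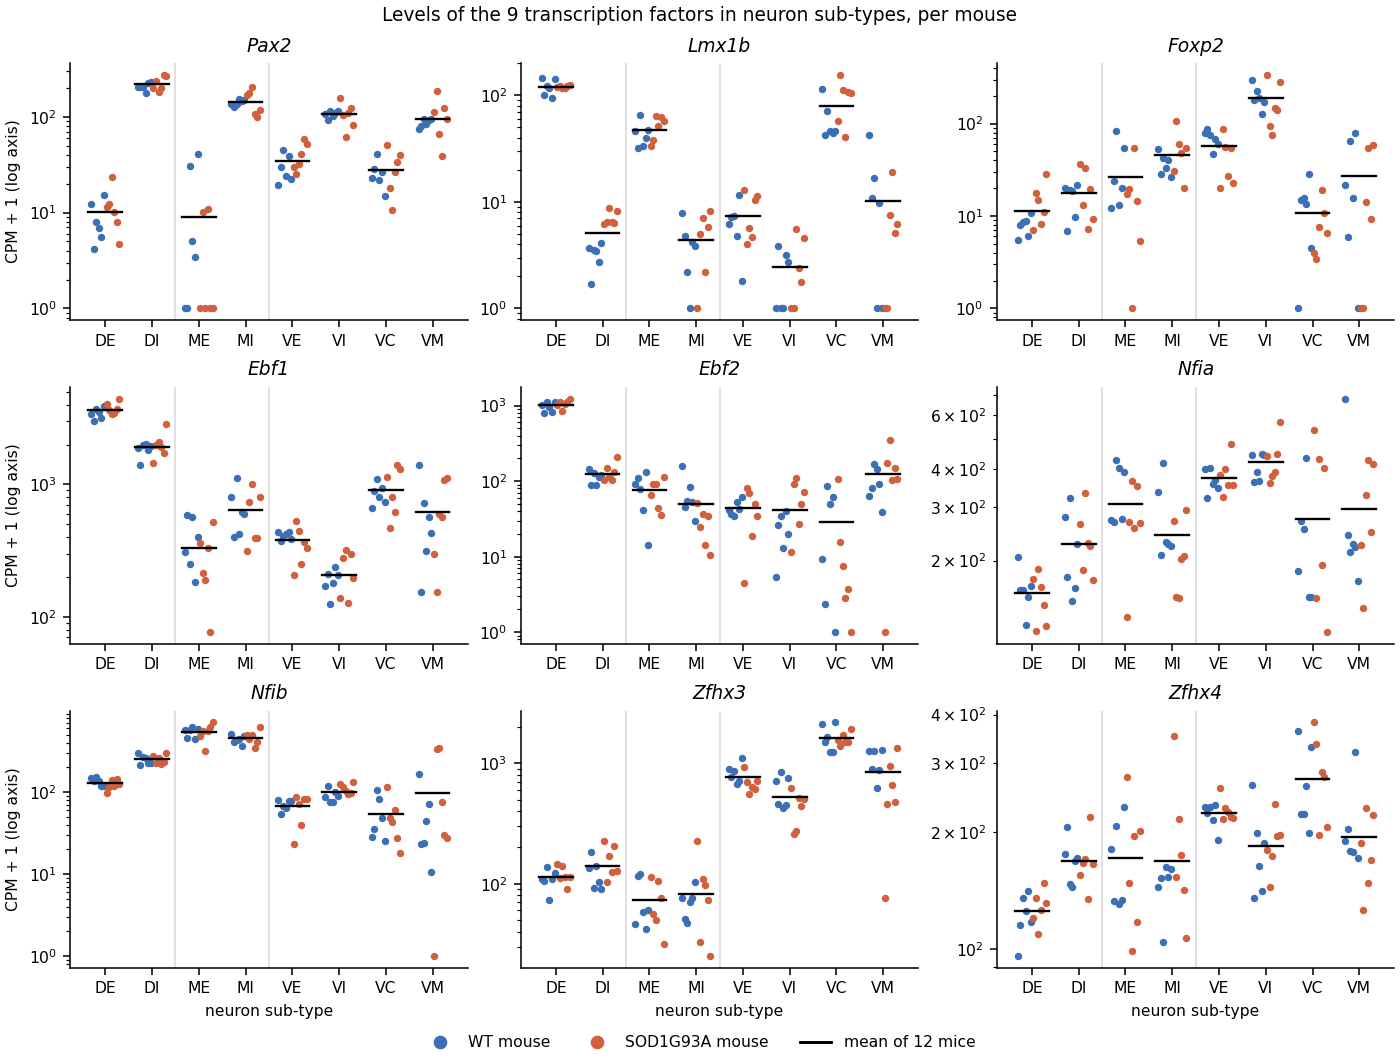
Each panel plots 1 gene. The x axis gives the neuron sub-type and the y axis the CPM + 1 on a log scale; points are mice (blue WT, orange SOD1G93A) and black bars the means of 12 mice. Pax2 is high in DI, MI, VI and VM, Lmx1b in DE, VC and ME, Nfib in ME and MI, and Zfhx3 in the 4 ventral sub-types.

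When sub-types were summed into dorsal (DE and DI), mid (ME and MI) and ventral (VE, VI, VC and VM) neurons, each of the 9 genes had the same direction in 12 of 12 mice. Ebf2 was higher in dorsal than in ventral neurons by 3.91 ± 0.56 on the log2 scale (15.0-fold), Ebf1 by 2.75 ± 0.25, Lmx1b by 2.28 ± 0.67, Nfib by 1.23 ± 0.26 and Pax2 by 0.73 ± 0.21. Zfhx3 was lower in dorsal neurons by 2.75 ± 0.38 (6.72-fold), Foxp2 by 2.48 ± 0.88, Nfia by 1.02 ± 0.26 and Zfhx4 by 0.65 ± 0.24. Of 20958 genes with at least 10 UMIs, 9.12% were higher in dorsal neurons in all 12 mice and 10.8% were higher in ventral neurons in all 12. The Pax2 direction depended on the mixture of nuclei, since it became -0.27 when the sub-types were weighted equally; the other 8 kept their sign.

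Mid neurons had high Nfib and low Zfhx3. Nfib was higher in mid than in ventral neurons by 2.66 ± 0.31 and higher in mid than in dorsal neurons by 1.43 ± 0.18 on the log2 scale, each in 12 of 12 mice. Zfhx3 was lower in mid than in ventral neurons by 3.55 ± 0.73 (12 of 12) and lower than in dorsal neurons by 0.80 ± 0.60 (11 of 12). Over all genes, 2.64% were higher and 3.38% lower in mid than in ventral neurons in all 12 mice, and 2.87% were higher and 2.95% lower in mid than in dorsal neurons. Pax2 and Zfhx4 did not differ beyond 1 SD between dorsal and mid neurons.

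**Figure D2:**
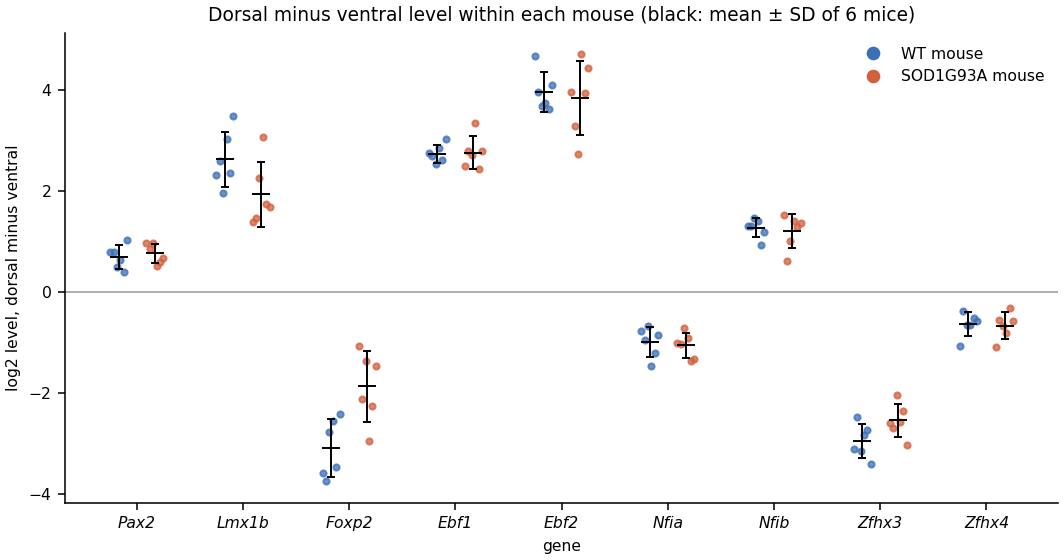
The y axis gives the log2 level (CPM + 1) in dorsal neurons minus that in ventral neurons of the same mouse, for each gene on the x axis; points are mice, and black marks the mean ± SD of 6 mice. All points of Pax2, Lmx1b, Ebf1, Ebf2 and Nfib lie above 0, and all points of Foxp2, Nfia, Zfhx3 and Zfhx4 lie below 0.

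Shares of nuclei with at least 1 UMI were compared after each nucleus was thinned to 5000 UMIs, because median depth was 10739.5 UMIs in dorsal and 19351 in ventral nuclei. Pax2 was found in 54.8% ± 5.65 of DI nuclei against 2.44% ± 1.36 in DE and 3.34% in oligodendrocytes, which should lack it. Lmx1b was found in 44.5% ± 5.21 of DE nuclei against 3.33% in oligodendrocytes. Foxp2 reached 25.3% ± 7.03 of VI nuclei against 7.07% in oligodendrocytes, and Ebf2 reached 81.3% ± 3.19 of DE nuclei against 11.5%. The DE share of Pax2 and the DI share of Lmx1b (0.921%) were below the oligodendrocyte share. Whether they are background was not tested. The oligodendrocyte share came from their deeper nuclei only. Lower shares were found among neurons, with Lmx1b in 0 of 491 VI nuclei and Ebf2 in 13 of 345 VC nuclei. The oligodendrocyte share is therefore not a background level of neuron nuclei. Unthinned, the shares were 75.5% for Pax2 in DI, 66.0% for Lmx1b in DE, 34.4% for Foxp2 in VI and 86.7% for Ebf2 in DE, at median depths of 11763, 10188, 23031 and 10188 UMIs, and the oligodendrocyte shares at a median of 5786 UMIs were 5.59%, 4.32%, 8.23% and 10.6%.

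Within the deposited sub-types, the nuclei also carry the closest type of a published spinal cord reference (such as DI_4), and the members varied strongly between these types. The study mapped nuclei to these types by the same expression profiles, so these levels too are a description, without a test. Only types with 30 or more nuclei are given, and a mouse counted where it had 3 or more. DI_4 (154 nuclei) broke the dorsal pattern, with Zfhx3 at 999 ± 249 CPM (617 to 1440) against 62.4 in the other DI nuclei and Zfhx4 at 596 ± 131 against 126. The same nuclei had Ebf1 at 45.8 ± 45.0 against 2096, Nfib at 28.0 ± 39.7 against 272 and Pax2 at 370 ± 92.6 against 204, each in the stated direction in 12 of 12 mice. The share of all genes with the same direction in every mouse is not given for contrasts of reference types. How unusual such directions are was therefore not tested. DI_2 held the highest Ebf1 of the inhibitory types (6115 ± 1018) and DI_6 (210 nuclei) the highest Nfib (670 ± 86.6) and Ebf2 (519 ± 248), with Ebf1 at only 206 ± 174. DI_8 and DI_9 had high Nfia (423 ± 95.5 and 589 ± 160) with Nfib at 27.2 ± 23.4 and 31.5 ± 21.2, so the nuclear factor I genes parted there.

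Excitatory dorsal types split along the same genes. Ebf1 ranged from 7600 ± 765 CPM in DE_7 to 757 ± 293 in DE_14, and Ebf2 from 2564 ± 780 in DE_3 to 41.8 ± 39.7 in DE_14. DE_15 (200 nuclei) combined the highest Nfia (677 ± 153 against 114 in other DE nuclei) and Nfib (535 ± 94.2 against 97.3) with an Ebf2 of 47.0 ± 26.7 against 1091. DE_14 (175 nuclei) held the highest Zfhx3 of DE (284 ± 60.6 against 101). Lmx1b varied least, from 66.1 ± 38.5 in DE_8 to 179 ± 34.5 in DE_2, a ratio of 2.72 between the extreme means.

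In VE, the 248 nuclei of VE_1 had Zfhx3 at 2031 ± 310 CPM (1536 to 2599), and the 1041 nuclei of VE_4 at 548 ± 105 (416 to 795), without overlap. The share of all genes without overlap between these types is not given. Nfia had the opposite order, 185 ± 47.6 in VE_1 and 404 ± 47.9 in VE_4. Among the mid inhibitory types, MI_1 had Nfib at 104 ± 47.2 against 584 in other MI nuclei (lower in 12 of 12 mice), whereas MI_3 had 632 ± 225 and was also the type with the highest Foxp2 (94.0 ± 84.7 against 8.75). Pax2 (297 ± 68.3) and Ebf1 (1426 ± 777) were highest in MI_4, over 11 mice.

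**Figure D3:**
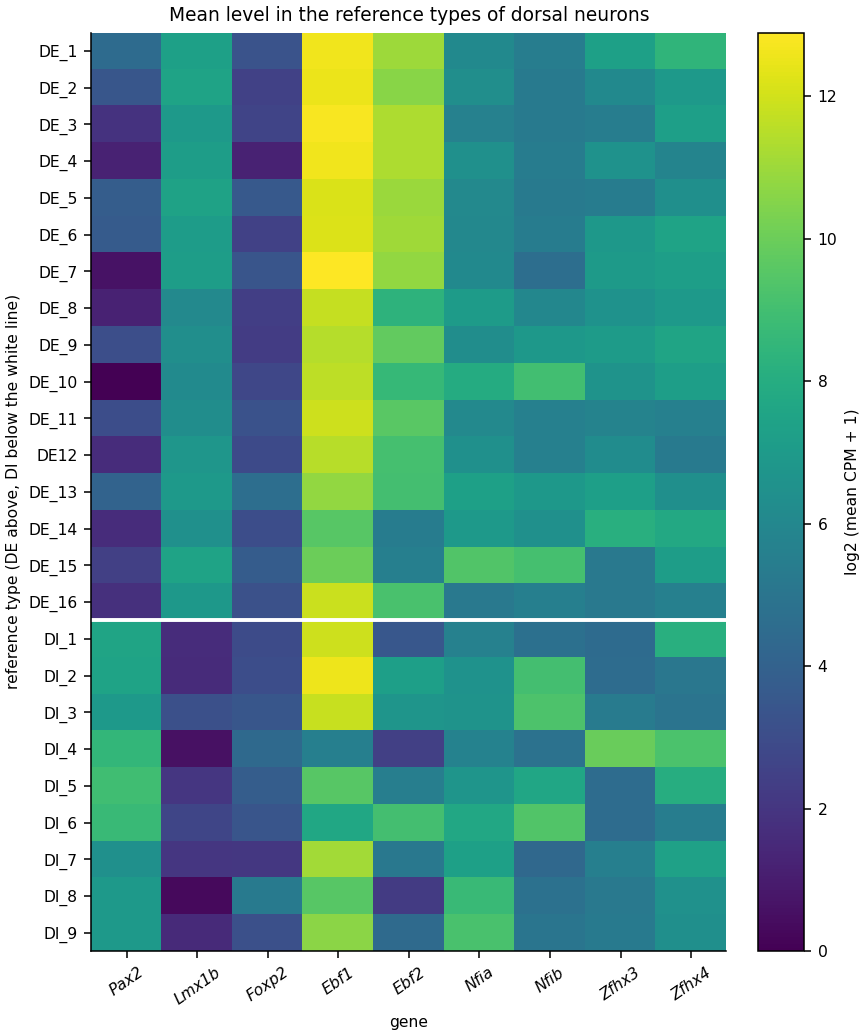
Rows are the reference types of the dorsal neurons (DE above and DI below the white line) and columns the 9 genes; colour is the log2 of the mean CPM + 1 over mice with 3 or more nuclei. DI_4 is bright for Zfhx3 and Zfhx4 and dark for Ebf1, and DE_15 is bright for Nfia and Nfib.

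Whether members shared nuclei was described by the odds ratio of finding a UMI of both genes in a nucleus of 5000 UMIs, computed within sub-types and within each mouse. Of the 36 pairs, Zfhx3 with Zfhx4 was above 1 in 12 of 12 mice (median 2.65, range 1.95 to 3.82). Nfia with Nfib (2.12) and Ebf1 with Ebf2 (1.87) were above 1 in 11 of 12, so the family pairs had the highest medians. DI was an exception for both: Ebf1 was found in 63.9% of DI nuclei with an Ebf2 UMI and in 76.7% of those without, and Nfia in 39.2% of those with Nfib and 39.98% of those without. Below 1 in 12 of 12 mice were 8 pairs, namely Nfib with Zfhx3 (0.58) and Zfhx4 (0.63), Ebf1 with Zfhx3 (0.55), Zfhx4 (0.61) and Pax2 (0.63), and Ebf2 with Nfia (0.53), Zfhx3 (0.56) and Zfhx4 (0.53). Pax2 and Lmx1b shared only 30 nuclei, with a median odds ratio of 0.057 over all neurons and 0.47 within sub-types.

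The inverse relation of Nfib and Zfhx3 was present in each sub-type of thinned nuclei, taken over all mice. In VE, Nfib was found in 13.0% of the nuclei with a Zfhx3 UMI and in 33.5% of those without, in VI in 18.3% and 41.9%, and in DI in 25.7% and 45.9%. The gap was narrow in DE (24.7% and 27.0%) and in ME (70.4% and 72.8%). Within the finer reference types (68 strata), Nfib with Zfhx3 had a median of 0.60 (below 1 in 11 mice), Nfib with Zfhx4 0.72 (12), Zfhx3 with Zfhx4 2.04 (above 1 in 12) and Nfia with Nfib 1.91 (12). Of the 8 pairs below 1 in every mouse within sub-types, only Nfib with Zfhx4 remained so within reference types. At 2000 UMIs that pair was below 1 within sub-types in 10 of 12 mice. Taken over all mice it went the other way in DE and ME, unlike the remaining sub-types. Nfib was found in 28.2% of DE nuclei with a Zfhx4 UMI and 25.3% of those without, and in ME in 79.1% and 65.7%. The other pairs of the 8 were nearer to 1 and below it in fewer mice. Ebf2 with Zfhx4 had 0.62 (11 mice below 1), Ebf2 with Zfhx3 0.68 (10), Ebf2 with Nfia 0.84 (10), Ebf1 with Zfhx4 0.70 (9), Ebf1 with Zfhx3 0.80 (9) and Pax2 with Ebf1 1.01 (5). Ebf2 with Nfib was 1.5 within reference types (above 1 in 12 mice), but 1.19 within sub-types (11) and 0.70 there at 2000 UMIs (1).

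**Figure D4:**
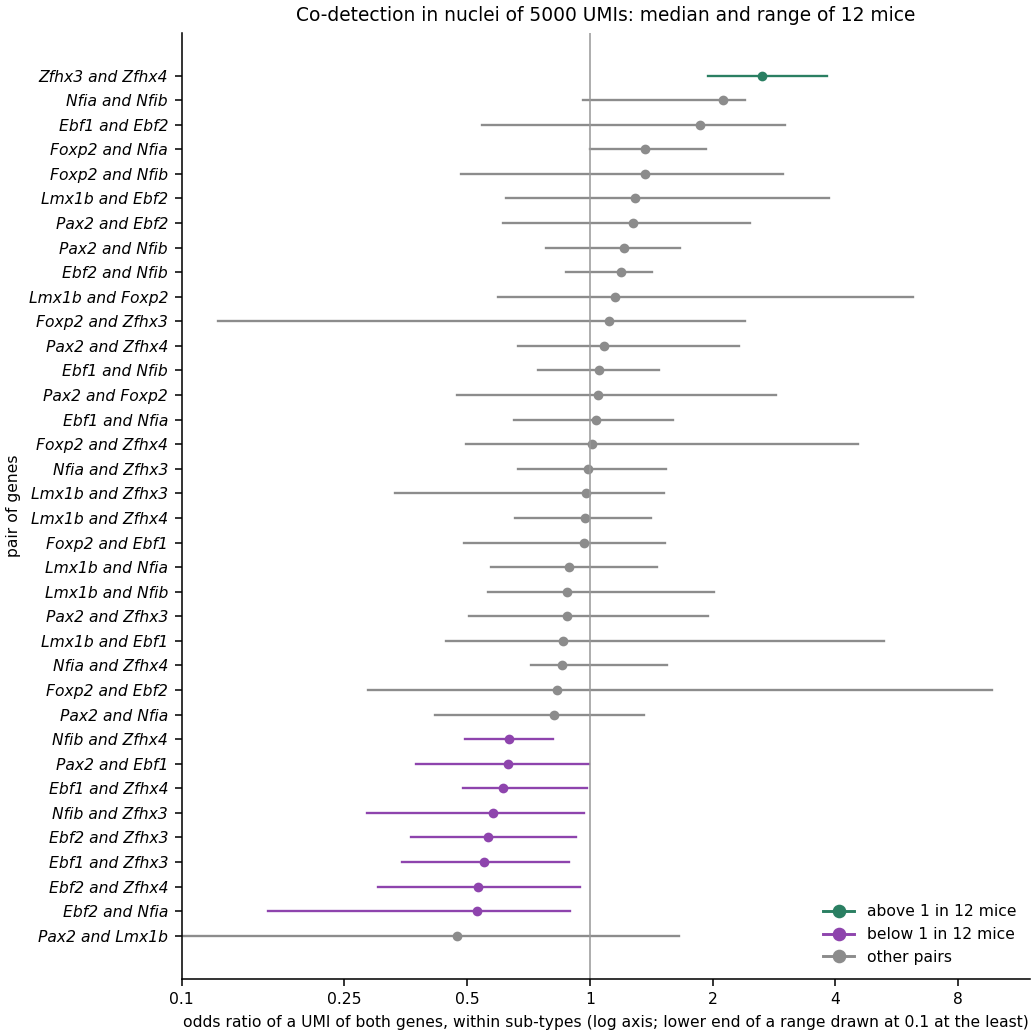
The x axis gives, on a log scale, the odds ratio of a UMI of both genes within sub-types, for each of 36 pairs on the y axis; dots are medians and lines the range of 12 mice, drawn from 0.1 where the lowest mouse is below it. Zfhx3 with Zfhx4 lies above 1 in every mouse, and 8 pairs in purple lie below 1 in every mouse.

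Across the 9 neuron sub-types, mean log2 levels of Nfib and Zfhx3 had a Pearson correlation of -0.89, Ebf1 and Nfia -0.88, Ebf2 and Zfhx4 -0.86, and Pax2 and Lmx1b -0.79. Zfhx3 and Zfhx4 had 0.81 and Foxp2 and Nfia 0.76. These are descriptions over 9 points that share the same 12 mice and libraries and differ in depth.

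Outside the interneurons the members had other sites of high expression. Nfia was 1989 ± 265 CPM in astrocytes and Nfib 831 ± 88.7, and at 5000 UMIs 99.4% and 96.4% of astrocytes had a UMI of them. Ebf1 was 2590 ± 737 in endothelial nuclei, a group that could include mural cells, beside 26.8 ± 29.5 for Ebf2 in the same nuclei. Foxp2 was 1198 ± 1210 in fibroblasts, but from only 174 UMIs in 46 nuclei of 10 mice. The 67 motor neuron nuclei had Nfia at 721 ± 181 and Nfib at 308 ± 88.8, with Zfhx3 at 110 ± 74.6 and Zfhx4 at 25.5 ± 37.8, whereas Lmx1b and Pax2 rested on 12 and 15 UMIs.

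The genes most like each member over 15 groups (9 neuron sub-types and 6 other cell types, the nuclei deposited as microglia among them) were named by the Pearson correlation of mean log2 levels among 14802 genes. Pax8, a paired-box relative, led for Pax2 (0.92), Cacna2d1, a calcium channel subunit, for Lmx1b (0.91), Frrs1 for Foxp2 (0.82), Col6a2, a collagen chain, for Ebf1 (0.89), Gm6878 for Ebf2 (0.93), Ifrd1 for Nfia (0.94), Tcf4, a helix-loop-helix factor, for Nfib (0.90), Lncbate1 for Zfhx3 (0.91) and Me1, malic enzyme, for Zfhx4 (0.98). The next were Gm27199 and Gm20395 for Pax2, Glt8d2 and 4933424G06Rik for Lmx1b, Grin3b and Ndufs1 for Foxp2, Nrp1 and Gm12158 for Ebf1, Car12 and 4930438E09Rik for Ebf2, P4ha1 and Add3 for Nfia, Nfix and Rsrc2 for Nfib, Gm39244 and G630016G05Rik for Zfhx3, and Ank2 and Gramd1b for Zfhx4. Over the 9 neuron sub-types alone the correlation was 0.53 for Ifrd1, 0.46 for P4ha1 and 0.55 for Add3 with Nfia, and 0.58 for Ank2 and 0.61 for Gramd1b with Zfhx4, so those likenesses were weaker among neurons. Of these 27 genes, 6 lie over the member itself on the other strand (for Pax2, Ebf1, Ebf2 and Zfhx3).

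A list of other transcription factors of spinal neuron classes was read from the same sums. Of 101 listed genes in the table, 27 were higher in dorsal neurons in all 12 mice, 16 were higher in ventral neurons in all 12, 50 were mixed and 8 had under 10 UMIs, where 9.12% and 10.8% of all genes were higher in dorsal and in ventral neurons in every mouse. The largest dorsal differences on the log2 scale were those of Sall3 (2.82 ± 0.60), Gbx1 (2.71 ± 0.36), Rorb (2.58 ± 0.27), Bnc2 (2.31 ± 0.39) and Zic1 (2.13 ± 0.62). Large ventral ones, given as dorsal minus ventral, included those of Esrrb (-2.60 ± 0.57), Onecut2 (-2.44 ± 0.37), Esrrg (-2.27 ± 0.18) and Nr5a2 (-2.24 ± 1.15).

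The members were then compared between SOD1G93A and WT mice, with limma-voom on the sums per mouse and pool as a term, and called at an adjusted p below 0.1 over all genes tested. Of 75 member tests in the 9 neuron sub-types, 1 passed, beside 0.0252% of all gene tests. In the 10 cell types 0 of 69 member tests passed (0.568% of all), and in the 3 domains 0 of 27 (0.0435%). At an unadjusted p below 0.05 in limma, 11 of 75 (14.7%), 14 of 69 (20.3%) and 4 of 27 (14.8%) member tests passed. The shares of all gene tests were 4.54%, 7.18% and 4.16%. Of the 14 in cell types, 4 came from the nuclei deposited as microglia. The sub-types, cell types and domains share nuclei, so these counts are not independent. Across the dorsal, mid and ventral fits the members' log2 differences ran from -0.91 ± 0.36 (SE, Ebf2 in mid neurons) to 0.65 ± 0.41 (Lmx1b in ventral neurons). In dorsal neurons the difference of Nfib was -0.03 with an approximate 95% interval of -0.19 to 0.13, that of Zfhx4 0.03 (-0.11 to 0.18) and that of Lmx1b 0.03 (-0.20 to 0.25).

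Ebf2 in MI, where its level was low, was the member that passed. WT mice had 28.5 to 157 CPM (median 53.3) and SOD1G93A mice 9.63 to 50.3 (median 28.6), so the groups overlapped, with 335 UMIs in 69 of 372 WT nuclei and 59 UMIs in 23 of 170 SOD1G93A nuclei. At 5000 UMIs Ebf2 was found in 13.2% ± 6.48 of WT and 8.66% ± 3.26 of SOD1G93A nuclei of MI, and the oligodendrocyte share was 11.5% ± 3.81. The UMIs were gathered in few nuclei: the top nucleus held 32 of 80 in the male WT mouse of pool A, and 12 of 14 (male of pool B) and 8 of 12 (female of pool A) in SOD1G93A mice, where 3 nuclei held 42.4% of the 59. By reference type, 15.5% of MI_3 nuclei had a UMI at 5000 UMIs, and 7.26% of MI_1 and 6.4% of MI_4. MI_3 made up 54.0% ± 9.20 of MI nuclei in WT and 48.2% ± 8.50 in SOD1G93A mice, and its part in the result was not tested. In limma-voom Ebf2 was lower in SOD1G93A by 1.64 ± 0.29 (SE) on the log2 scale, with an adjusted p of 0.0387, and 0.06% of genes tested in MI passed. DESeq2 also called it (adjusted p = 0.0687), whereas without the pool term the limma adjusted p was 0.999 and in edgeR it was 0.239. With nuclei thinned to 5000 UMIs or a minimum count of 30, Ebf2 in MI was too low to be tested. Leaving out 1 mouse at a time moved the difference between -1.89 and -1.04, the latter once pool A's male SOD1G93A mouse was left out. The call also did not hold without any 1 of 6 mice: female WT of pool C, each of the 3 female SOD1G93A, and male SOD1G93A of pools A and C. Summed inhibitory markers in MI were 265 to 381 CPM in WT and 308 to 436 in SOD1G93A mice, and their part in the result was not tested.

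In VI, Ebf2 had the opposite sign. WT mice had 4.45 to 39.3 CPM and SOD1G93A mice 10.5 to 108, from 225 and 262 UMIs in 41 of 318 and 35 of 178 nuclei. The shares at 5000 UMIs were 5.97% ± 1.91 in WT and 12.2% ± 8.65 in SOD1G93A mice, beside the 11.5% of oligodendrocytes. Single nuclei held many of the UMIs, with 40 of 93 in 1 nucleus of the female of pool C, 33 of 63 in 1 of the male of pool B and 23 of 48 in 1 of the female of pool B among SOD1G93A mice, and 36 of 109 in 1 nucleus of pool B's male WT mouse. The limma log2 difference was 1.32 ± 0.27 (SE) with an adjusted p of 0.137, which does not pass, whereas edgeR gave an adjusted p of 0.00115 and DESeq2 one of 0.00245. In limma it passed with no filter on low counts (adjusted p = 0.0106) and when any 1 of 4 mice was left out: in WT the female of pool A (0.0125) or the male of pool B (0.0150), and in SOD1G93A the female of pool A (0.0495) or the male of pool B (0.0265).

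Foxp2 in ventral neurons was lower in all 6 SOD1G93A mice than in all 6 WT mice. WT levels were 119, 101, 86.0, 71.5, 79.4 and 79.2 CPM (females of pools A to C, then males), and SOD1G93A levels in the same order were 42.1, 68.6, 53.6, 59.7, 68.3 and 59.2. The gap was wider in females (86.0 to 119 against 42.1 to 68.6) than in males (71.5 to 79.4 against 59.2 to 68.3). No member passed for a sex difference of the genotype effect in the domains. A lack of overlap with SOD1G93A lower was found for 10 of 13318 genes (0.0751%). The limma log2 difference was -0.56 ± 0.11 (SE) with an adjusted p of 0.293, so it did not pass, while the DESeq2 adjusted p was 0.0204 and leaving out the female WT mouse of pool B gave a limma adjusted p of 0.0206. The share of VI among ventral nuclei was 20.3% ± 2.67 in WT and 20.5% ± 5.18 in SOD1G93A mice, and that of VC, where Foxp2 was low, was 14.6% ± 1.95 and 17.7% ± 5.45 (up to 28.0%). Their part in the result was not tested. At 5000 UMIs Foxp2 was found in 25.4% ± 3.57 of WT and 25.3% ± 9.80 of SOD1G93A nuclei of VI, in 13.0% ± 1.92 and 10.1% ± 2.92 of VE, and in 13.9% ± 1.88 and 11.4% ± 2.95 of ventral nuclei.

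Lmx1b in DI, singled out here after its values were seen, did not overlap between genotypes. In the order used for Foxp2, WT mice had 2.70, 0.697, 2.55, 2.45, 1.70 and 3.09 CPM and SOD1G93A mice 5.16, 5.42, 7.76, 5.51, 5.30 and 7.19, so every SOD1G93A mouse was higher. Of 16853 genes with at least 10 UMIs in DI, 14 had all SOD1G93A above all WT mice (0.0831%). The values rested on 27 UMIs in WT and 48 in SOD1G93A mice, too few to pass the filter on low counts, and without that filter limma gave a log2 difference of 1.5 ± 0.35 (SE) with an adjusted p of 0.35. At 5000 UMIs Lmx1b was found in 0.768% ± 0.922 of WT and 1.07% ± 0.617 of SOD1G93A nuclei of DI, below the oligodendrocyte share. In DE the mean was 119 ± 20.8 CPM in WT and 119.5 ± 3.59 in SOD1G93A mice.

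Dorsal Foxp2 was at a lower level, with 6.31 to 14.1 CPM in WT and 6.83 to 20.9 in SOD1G93A mice. At 5000 UMIs it was found in 3.37% ± 1.01 of WT and 4.01% ± 1.77 of SOD1G93A dorsal nuclei, below the oligodendrocyte share of 7.07%. Its limma log2 difference was 0.60 ± 0.22 (SE), with an adjusted p of 0.692. Once pool A's male SOD1G93A mouse was left out it was 0.93 with a limma adjusted p of 0.0225, and over all mice left out in turn it was 0.42 to 0.93. In the female SOD1G93A mouse of pool A, 1 nucleus held 27 of the 41 dorsal Foxp2 UMIs, and in pool C 1 nucleus held 21 of 52 in the female and 24 of 51 in the male SOD1G93A mouse, these 3 mice having the highest dorsal levels. The difference between the dorsal and the ventral genotype effect was 1.09 ± 0.34 (SE) with a limma adjusted p of 0.656. None of the 9 members passed in this test of the difference between domains (0.00396% of all gene tests passed). At an unadjusted p below 0.05 in limma, 2 of 9 members (22.2%) passed for dorsal against ventral, beside 6.06% of genes. For mid against ventral 0 of 9 passed, beside 4.94%.

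Zfhx3 in VI was 424 to 844 CPM in WT and 259 to 620 in SOD1G93A mice, overlapping, with a limma log2 difference of -0.59 ± 0.20 (SE) and an adjusted p of 1.0. With no filter on low counts the limma adjusted p was 0.00194, where the difference was nearly the same (-0.58) and its SE was smaller (0.11). With nuclei thinned to 5000 UMIs the limma adjusted p was 0.00368, for a difference of -0.81 ± 0.14 (SE). No member passed for female against male (0.0928% of gene tests in the sub-types passed) or for a sex difference of the genotype effect (0.0782%). In limma 7 (9.33%) and 13 (17.3%) of 75 had an unadjusted p below 0.05, beside 4.73% and 4.08% of all gene tests. The domains gave no member call for either. There 3 (11.1%) and 5 (18.5%) of 27 had an unadjusted p below 0.05 in limma, beside 4.37% and 3.01% of all gene tests.

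**Figure D5:**
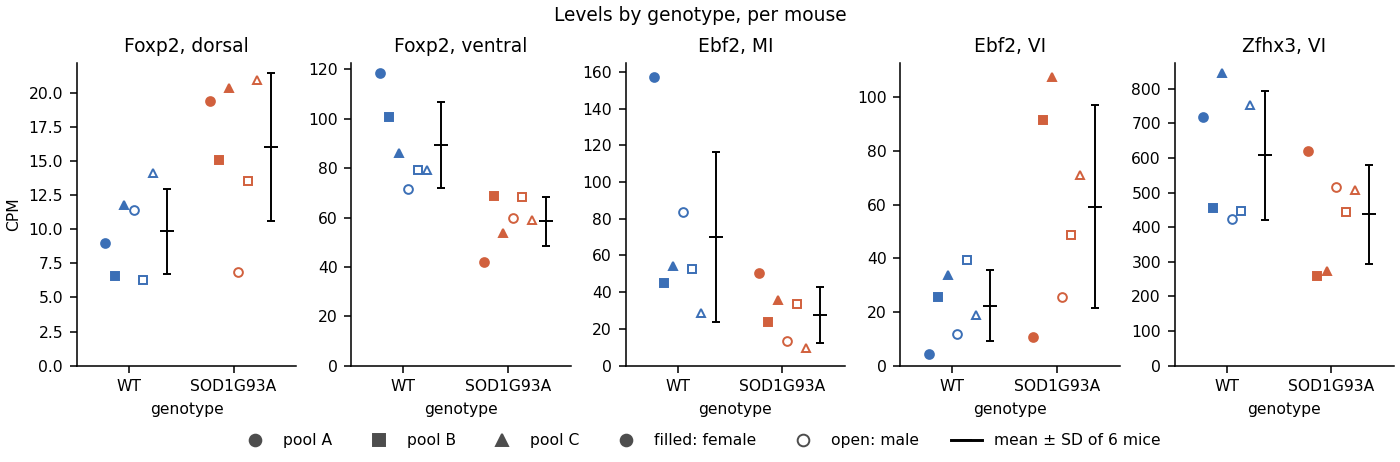
The y axes give CPM from 0, and the x axes the genotype, for Foxp2 in dorsal and ventral neurons, Ebf2 in MI and VI, and Zfhx3 in VI; symbols are mice (circle pool A, square pool B, triangle pool C; filled female, open male) and black marks the mean ± SD of 6 mice. The 6 SOD1G93A values of ventral Foxp2 (42.1 to 68.6) lie below the 6 WT values (71.5 to 119), and the groups overlap in the other panels.

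Of the listed other factors, 1 of 315 tests in the neuron sub-types passed for genotype and none of 140 in the domains or 25 in motor neurons, where 3.07% of genes passed. It was Bnc2 in DI, a zinc-finger factor that was higher in DE (234 CPM over all WT and 279 over all SOD1G93A nuclei), and limma-voom gave a log2 difference of 1.89 ± 0.32 (SE) and an adjusted p of 0.0177, with 0.019% of genes tested in DI passing. This rested on 30 UMIs in 1006 WT nuclei and 102 in 583 SOD1G93A nuclei, and 3 nuclei held 52.0% of the latter. They were 1 nucleus each in the females of pools A (20 of 42 UMIs) and B (19 of 27) and the male of pool A (14 of 23), and leaving out that female of pool A gave a limma adjusted p of 0.211. It did not pass without the pool term (0.998) or without the female (0.103) or male (0.236) WT mouse of pool A in limma. Bnc2 in DI also passed for female minus male, with a limma log2 difference of 1.46 ± 0.31 (SE) and an adjusted p of 0.0753. In astrocytes 3 of 41 listed factors tested passed, beside 2.29% of genes, named here after their values were seen: limma-voom gave log2 differences of -0.56 ± 0.10 (SE) for Rora (adjusted p = 0.00537), -0.48 ± 0.13 for Esrrg (0.0738) and 0.75 ± 0.21 for Ebf3 (0.0994).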

How the data were processed

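The authors sequenced nuclear RNA on the 10x platform, aligned it to mm10 (Cell Ranger 3.1, STAR 2.5.1b, per the labels' processing notes) and deposited raw UMI counts per gene and nucleus with the mouse, cell type and neuron sub-type of each nucleus (Seurat 4.0.3). The authors' table normalized by sctransform was not used here. Counts of nuclei were summed per mouse over each sub-type, cell type or domain, and levels are UMIs per 1000000 UMIs of that sum (CPM). A prior of 1 was added before log2. The members and all gene lists were chosen with earlier results of these data known. Genes named besides the 9 members were the listed factors called for genotype, the 5 with the highest and the 5 with the lowest dorsal minus ventral mean, and the 3 most like each member; 1 gene that this rule names is not reported here.

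Genotype was tested with the steps the study's methods state (limma with voom on TMMwsp factors, filterByExpr, sex-genotype group and pool as terms, a threshold of 0.1), here in limma 3.58.1. A minimum count of 10, robust eBayes and Benjamini-Hochberg adjustment over all genes of a fit were set here. edgeR 4.0.16 and DESeq2 1.42.0 were run as alternatives. The fits were tested on simulated data with known changes and the same spread for all genes. In DE sums, 81% of 2-fold and 24% of 1.5-fold changes were recovered, with 17 false calls. These shares were 68% and 25% in ME sums, and 77% and 26% in ventral sums. For the dorsal against ventral difference of the genotype effect, 61% of 2-fold changes were recovered. Changes of 1.5-fold were thus mostly missed. Pools share a library, so pool is the pairing: residuals of mice of the same pool had a median correlation of 0.266 in dorsal sums and those of different pools -0.126 (0.221 and -0.151 in ventral, 0.0899 and -0.0409 in mid sums, 0.0526 and -0.0211 in MI sums). Each mouse was a separate animal. Doublets were not called again, since the deposited nuclei were already filtered and assigned to mice. Thinning drew 5000 UMIs per nucleus and left out shallower nuclei (410 of the dorsal, 22 of the mid and 42 of the ventral ones). Oligodendrocytes, with a median of 5786 UMIs, also lost their shallower nuclei.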

Additional observations from a re-analysis of the deposited data

Results flagged for a closer look

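Of 54 groups of 6 mice (9 genes, 3 domains and 2 genotypes), 6 held a mouse far from the other 5, by the gap to its nearest neighbour against the range of the group. For independent, normally distributed values the rule would flag about 1 in 20 groups. The 54 groups come from the same 12 mice, so the 6 cannot be judged against that rate. In SOD1G93A mice, the male of pool C had Ebf1 at 3899 CPM in dorsal neurons (others 2862 to 3042) and Nfib at 657 in mid neurons (400 to 493). The female SOD1G93A mouse of pool A had Zfhx4 at 336 in mid neurons (135 to 179) and at 289 in ventral neurons (210 to 226), and the male SOD1G93A mouse of pool B had Zfhx4 at 175 in dorsal neurons (129 to 145). In WT mice, the male of pool C had Zfhx3 at 89.5 in mid neurons (62.1 to 70.5).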

How the results depend on the processing

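The values of the genotype tests are calls among the members. In the neuron sub-types 1 was called, and DESeq2 called 2, no filter on low counts 3, and a minimum count of 30 called 0. These were not all the same tests: limma called Ebf2 in MI, DESeq2 that and Ebf2 in VI, no filter both and Zfhx3 in VI, edgeR Ebf2 in VI in place of MI, and thinning to 5000 UMIs Zfhx3 in VI in place of Ebf2. Leaving out each mouse in turn gave 0 to 2. Without the pool block, which is the pairing of these mice, 0 were called, and Bnc2 in DI was lost too; no other call among the members changed in those tests. In the cell types 0 were called, and 1 with no filter (Foxp2 in motor neurons), 1 with a minimum count of 30 (Lmx1b in nuclei deposited as microglia) and 0 to 2 without each mouse in turn. In the domains DESeq2 called 1 (ventral Foxp2), with 0 to 1 without each mouse. For sex and its interaction with genotype no filter gave 1 (Zfhx3 in VI), with 0 to 3 without each mouse. With equal weights of the sub-types, dorsal minus ventral log2 levels were -0.27 for Pax2 (reversed), 1.51 for Lmx1b, -1.25 for Foxp2 and 1.61 for Nfib, and with only VE and VI as ventral 3.80 for Lmx1b and 3.18 for Ebf1. By the mean over nuclei, DE minus DI was 3.41 for Ebf2 and -1.23 for Nfib, and with a prior of 0.1, VE minus VI was 3.14 for Lmx1b. The share of nuclei with a UMI depended on depth: thinned to 2000 UMIs and unthinned it was 31.1% and 75.5% for Pax2 in DI, 22.5% and 66.0% for Lmx1b in DE, 17.6% and 34.4% for Foxp2 in VI, 94.1% and 98.6% for Ebf1 in DE, 69.6% and 86.7% for Ebf2 in DE, 50.4% and 92.5% for Nfia in VI, and 30.0% and 82.6% for Zfhx4 in VE, and 57.4% at 2000 UMIs for Nfib in ME. At 2000 UMIs, 2 pairs were above 1 and 3 below 1 in all 12 mice, against 1 and 8 at 5000. The causes were not tested. Of the other values recomputed, 614 stayed within their limits, and of 126 for single genes 102 kept their side of the threshold, 12 lost it and 12 gained it. Few UMIs limit the precision of Pax2 in ME and Lmx1b in VI, which rested on 19 of 2695665 and 21 of 12988203.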
